A study of Danio rerio with 19 samples.

Results

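Adult zebrafish islets yielded 2 populations of cells with an active *sst1.1* reporter, one with strong and one with weak green fluorescence, and their RNA was compared here gene by gene. The fish carried *Tg(sst1.1:eGFP)*, in which a short fragment just upstream of the *sst1.1* start codon drives GFP, together with *Tg(ins:NTR\*-P2A-mCherry)*, in which the insulin promoter drives nitroreductase and mCherry. They were males and females of 6 to 10 months, and all were controls that received 0.16% DMSO for 18 h and no ablating drug. The series design places the collection at 20 days post treatment. Main islets from 2 to 4 pancreata were pooled for a replicate, dissociated and sorted by FACS for GFP+ mCherry- cells, so that neither gate should hold β-cells. The members are the 3 GFPhigh and the 3 GFPlow libraries as labelled, 6 of the 19 libraries of the series. The other 13 libraries, 7 of β-cells and 6 of bihormonal cells that arise after β-cell ablation, entered the filter on low counts, the estimate of the spread between replicates and, in the fit with library sets described last, the bridge between the sorts. The replicates are described as independent biological samples, and each is a pool of animals.

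δ-cells are the islet cells that release somatostatin, a short peptide that acts on neighbouring cells through G protein-coupled receptors and restrains the release of insulin and glucagon. Zebrafish have several somatostatin genes, and their islets hold a δ-cell population that makes *sst1.1* and another that makes *sst2* with *sst1.2*. Because GFP brightness reports the activity of an *sst1.1* fragment, the gates were set on the transgene and not on any of the other genes described below. The study regards GFPlow cells as *sst2* δ-cells with ectopic activity of the transgene.

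The labels were checked first on the somatostatin genes. *sst1.1* took 43.73, 52.36 and 40.3% of all counts in GFPhigh replicates 1, 2 and 3 and 3.39, 6.24 and 7.12% in GFPlow, while *sst2* took 0.1, 0.27 and 0.32% and 19.89, 24.04 and 17.89%. *sst1.2* took 0.34, 0.68 and 0.46% in GFPhigh and 8.03, 6.67 and 5.64% in GFPlow. Each of the 3 genes separated the groups without overlap, *sst1.1* in the direction of the labels. The labels give no direction for *sst2* and *sst1.2*. The study reported theirs from these same libraries, and for *sst2* also by in situ hybridization in embryos. The RNA levels of *sst2* and *sst1.2* are thus no separate check of the labels. In normalized counts the mean of *sst1.1* was 12.1-fold higher in GFPhigh (log2 fold change 3.6 ± 0.921 (SE), adjusted p = 0.00852 in edgeR's quasi-likelihood test, n = 3 and 3), and that of *sst2* was 61.4-fold higher in GFPlow (-5.94 ± 1.23, adjusted p = 0.00162). The call for *sst1.1* was lost without GFPlow replicate 1 (3.35), and that for *sst1.2* (-3.2 ± 0.938, adjusted p = 0.0207) was lost without GFPhigh replicate 1 (-2.95), GFPhigh replicate 3 (-3.07) or GFPlow replicate 1 (-3.05). *hhex*, a homeodomain gene of δ-cells, stood at 521.8, 341.8 and 550.9 normalized counts in GFPhigh and at 728.8, 514.6 and 651 in GFPlow, and did not pass the test (-0.42 ± 0.328, adjusted p = 0.411). *ucn3l*, coding for urocortin 3, stood at 3050, 2847 and 2589 in GFPhigh against 34.59, 93.05 and 126.3 in GFPlow. The study found it enriched in *sst1.1* δ-cells in these same libraries, and by staining in a subset of GFPhigh cells. Its RNA level is therefore no separate check of the labels.

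The libraries held 9631886 to 11972983 counts in GFPhigh and 5599246 to 9017892 in GFPlow, within the 5599246 to 18077658 of the series. GFPhigh replicate 2 stood apart from its group: its log expression correlated at 0.871 and 0.85 with the other GFPhigh libraries, which correlated at 0.938 with each other, while GFPlow pairs reached 0.952 to 0.956 and pairs across groups 0.685 to 0.82. Markers of other cells differed between the groups, and those of α- and ε-cells were abundant in GFPlow. Over the 32 acinar markers the summed level was 1420 to 1610 in GFPhigh and 5970, 3900 and 808 in GFPlow, and of the 14 tested 1 was higher in GFPhigh and 6 in GFPlow. The 5 α- and ε-cell markers summed to 6130, 162 and 4100 in GFPhigh and to 90500, 52200 and 78900 in GFPlow, above the 9090 to 16200 of the β-cell libraries. The bihormonal libraries ranged from 5380 to 88100, so a high sum was not particular to GFPlow. The 15 stromal markers summed to 40.1 to 80.6 and 147 to 334, and the 16 ductal markers to 3190 to 4050 and 6880 to 7390. The 13 hepatocyte and enterocyte markers summed to 438 to 911 and 1890 to 2740. Single genes carried most of each of these GFPlow sums: *TAGLN* (281, 119 and 167), *anxa4* (4590, 4890 and 3830) and *cdx1b* (2490, 1840 and 1690). Other members went the other way. A ductal *SOX9* gene (ENSDARG00000003293) stood at 176, 138 and 89.4 in GFPhigh against 46.5, 43.7 and 39.3. The enterocyte marker *vil1* stood at 394, 880 and 416 against 28.6, 40.8 and 82.8. β-cell markers summed to 1110 to 5710 in GFPhigh and 2900 to 10900 in GFPlow, against 1840000 to 3210000 in β-cells, and *ins* overlapped between the groups. Endothelial (4.6 to 25 in all 6 libraries) and erythroid markers (11.8 to 25.7) were near 0, the 36 leukocyte markers ranged from 129 to 862 and from 48.4 to 902, and glial and neuronal markers from 2860 to 3490 and from 1630 to 2490. The part of these differences in the results below was not tested. In bulk libraries a larger share of cells of a type cannot be told apart from more RNA per cell.

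For selected genes, the level left in the lower group was set against the mean of the higher group. The mean of *sst1.1* in GFPlow was 8.26% of that in GFPhigh, and *ptn* and *sim1a*, described below, kept 9.3% and 6.13%. *sema3gb* kept 0.362% and *col11a1b* 0.724%, and *galr2b* had no count in any GFPlow library. *sema3gb*, *col11a1b* and *galr2b*, and *fabp6* given next, were among the genes chosen by largest fold. A low level left was thus part of their choice, and the spread among these genes is no result about the groups. In the other direction *sst2* kept 1.63% in GFPhigh, *ghrl* 0.636%, *cldni* 0.835% and *fabp6* 0.364%. Among the 1129 genes called higher in GFPhigh, 662 (58.6%) had their highest GFPlow level in GFPlow replicate 3. Of the GFPlow libraries it had the largest share of *sst1.1*, and it also had the fewest counts of the series (5599246). Of the 1161 genes called higher in GFPlow, 551 (47.5%) had their highest GFPhigh level in GFPhigh replicate 3. No share over all genes tested was set beside these counts, and their cause was not tested.

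Across all genes the sorts differed widely. The 14620 genes tested had at least 10 normalized counts on average, and 2290 of them (15.7%) were called, that is, had an adjusted p below 0.05 and a fold change above 2. Of these, 1129 (7.72% of genes tested) were higher in GFPhigh and 1161 (7.94%) higher in GFPlow. The 3 values of each group did not overlap in 5670 genes (38.8%), with GFPhigh above in 17.9% and GFPlow above in 20.9%, and in 2223 of the called genes (97.1%). Where called genes below are said to separate the groups or not to overlap, this share of 97.1% is the background. Such statements describe the values and add no support to the calls. The even split hid unequal sizes. More than 8-fold differences numbered 215 in GFPhigh and 559 in GFPlow, and more than 32-fold differences 33 and 269, with a median absolute log2 fold change of 1.91 and 2.91. Many genes of GFPlow were close to absent from GFPhigh: 406 of the 1161 had a mean below 10 there, against 152 of the 1129 in GFPlow. Called genes with no count in the 3 libraries of the lower group numbered 25 for GFPhigh and 7 for GFPlow as that group. The filter on low counts averaged over all 19 libraries, 6 of them of bihormonal cells. A gene seen only in GFPlow thus needed a higher level there to enter than a gene also present in other groups. With edgeR's own filter instead, 1182 genes were higher in GFPhigh and 1408 in GFPlow, and without a filter 1172 and 1447. The share of calls higher in GFPhigh was then 45.6% and 44.7%, in place of 49.3%. The part of the filter in the sizes and in the genes with no count was not tested. With library totals alone in place of TMM the median of all genes moved from -0.05 to -0.58 on the log2 scale and 500 genes were higher in GFPhigh and 2564 in GFPlow, so that 16.3% and not 49.3% of calls were higher in GFPhigh. *sst1.1* itself takes a large share of the GFPhigh counts, and directions below are relative to the TMM scale.

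**Figure D1:**
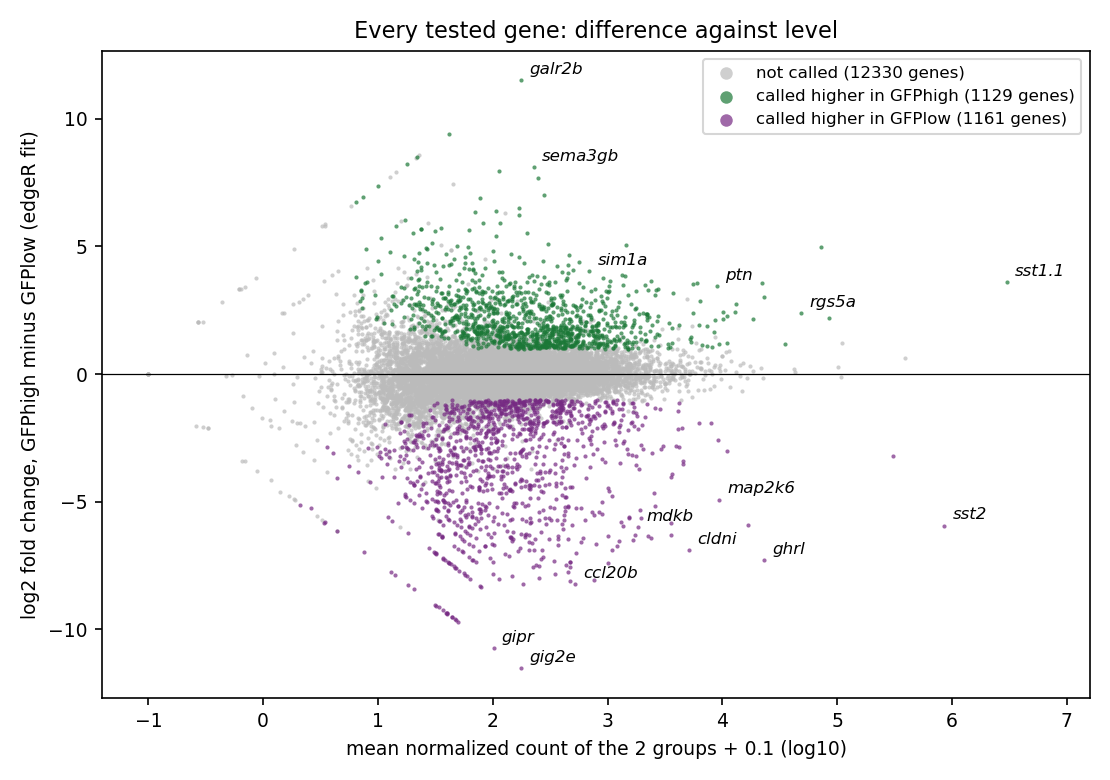
Difference between GFPhigh and GFPlow for each of the 14620 genes tested, as log2 fold change against the mean normalized count of both groups on a log axis, with the called genes in colour and selected genes named. Of the called genes more than 32-fold apart, 269 lie on the GFPlow side and 33 on the GFPhigh side, and fitted values of genes at a count of 0 in a group depend on the prior count and are no bounds.

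GFPhigh cells carried receptors, matrix and guidance genes that were nearly missing from GFPlow. *galr2b* (ENSDARG00000105113), coding for a receptor of the neuropeptide galanin, stood at 133.4, 295.8 and 622.9 normalized counts in GFPhigh and had no count in GFPlow. Its mean was at least 304-fold higher in GFPhigh (floor of 3 counts over the group, adjusted p = 0.0017), a limit that was 181 without GFPlow replicate 2 and was also more than 1.5 times lower without GFPhigh replicate 3. *sema3gb* (ENSDARG00000013607), a secreted semaphorin that steers axons and migrating cells, stood at 518.2, 642.1 and 205.6 against 1.193, 0.9495 and 2.806 (log2 fold change 8.09 ± 1.22, adjusted p = 8.16e-05). Both genes separated the groups in every library. *col11a1b* (ENSDARG00000009014), a chain of fibrillar type XI collagen, stood at 602, 771 and 295 against 3.578, 5.697 and 2.806 (7.02 ± 1.32, adjusted p = 0.000685). *ghrhrl* (ENSDARG00000095788), related to the receptor of growth hormone-releasing hormone, stood at 111, 256.6 and 117.2 against 1.193, 4.748 and 1.403 (5.9 ± 0.82, and 6.84 without GFPlow replicate 2). *meis2a* (ENSDARG00000098240), a homeodomain factor, was uneven within GFPhigh, at 623.3, 842.4 and 26.72 against 4.771, 0 and 2.806, with the low value in GFPhigh replicate 3. Its fitted log2 fold change was 7.66 ± 1.59 and moved between 6.97 without GFPlow replicate 2 and 8.62 without GFPlow replicate 1, with 7.04 without GFPhigh replicate 2, and limma's voom did not call the gene (6.55, adjusted p = 0.116). *gcnt4a* (ENSDARG00000035198), an enzyme that branches O-linked sugar chains, stood at 217.2, 155.4 and 258 against 3.578, 0 and 4.209 (6.39 ± 0.766, and 5.72 without GFPlow replicate 2). *brinp3a.1*, of a family expressed mainly in neurons, stood at 257.3, 690.5 and 225.1 against 7.156, 4.748 and 14.03 (5.53 ± 0.846, and 4.83 without GFPhigh replicate 2). None of the 7 genes overlapped between the groups, which the rule that chose them by largest fold required.

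Genes with the smallest p-values in GFPhigh were taken from those with a mean of at least 1000 normalized counts there. A high level in GFPhigh was thus part of the choice, and those given here were also detected in every GFPlow library. *ptn* (ENSDARG00000102340), coding for the secreted heparin-binding factor pleiotrophin, stood at 18300, 10340 and 20200 in GFPhigh and at 1307, 1298 and 1936 in GFPlow, a 10.8-fold difference of the means (3.43 ± 0.316, adjusted p = 8.13e-07). *meis1a* (ENSDARG00000002937), a homeodomain factor of the same family as *meis2a*, stood at 7491, 7320 and 5344 against 551, 719.7 and 975.1 (3.17 ± 0.3, adjusted p = 9.86e-07). The lowest GFPhigh value of each gene lay more than 5-fold above the highest GFPlow value. *itga6b* (ENSDARG00000069946), a laminin-binding integrin, stood at 3835, 3836 and 6238 against 442.5, 489 and 694.5 (3.1 ± 0.324). *sv2a*, a glycoprotein of synaptic vesicles, rose 6.57-fold, from 128.8 to 168.4 in GFPlow to 747.3 to 1307 in GFPhigh. *cav2*, coding for caveolin 2, stood at 1137, 1244 and 1147 against 201.6, 249.7 and 303.1 (2.23 ± 0.244), and *ptprfb*, a receptor tyrosine phosphatase, at 1304, 1847 and 1343 against 201.6, 276.3 and 310.1 (2.51 ± 0.27). Among the most abundant genes *rgs5a* (ENSDARG00000002644), which shortens G protein signals, stood at 65660, 75960 and 104200 in GFPhigh against 8941, 18390 and 19410 in GFPlow (2.39 ± 0.373, adjusted p = 0.00011).

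Among the genes tested GFPlow had the larger differences, and several of the genes concerned code for secreted defence proteins, receptors and lipid carriers. *gig2e* (ENSDARG00000075757), of a fish family known from antiviral responses, stood at 344.7, 479.5 and 238.5 in GFPlow and had no count in GFPhigh, at least a 318-fold difference (adjusted p = 4.35e-05). The limit was 217, 215 and 203 without GFPhigh replicate 1, 2 and 3, as the floor then rests on fewer libraries. *ccl20b* (ENSDARG00000094511), coding for a chemokine, stood at 1349, 827 and 906.4 against 3.541, 0 and 6.167 (log2 fold change -8.22 ± 0.895, adjusted p = 3.72e-06, and -9.1 without GFPhigh replicate 3). Neither gene came near its GFPlow level in any GFPhigh library. The complement genes *c4b* and *bfb* (complement factor B) were both in this class. *c4b* stood at 490.2, 379.8 and 628.6 against 4.722, 0 and 1.028 (-7.97 ± 0.804, and -9.57 without GFPhigh replicate 1). *bfb* stood at 275.5, 217.4 and 188 against 2 counts in all of GFPhigh, 305 times the pooled GFPhigh level (95% interval from counting 84.5 to 2520). *gipr* (ENSDARG00000025478), the receptor of the incretin GIP, was uneven within GFPlow, at 35.78, 298.1 and 276.4 with no count in GFPhigh, at least a 182-fold difference (adjusted p = 0.000603, and at least 116 without GFPhigh replicate 3). *uts2r1* (ENSDARG00000009624), a urotensin 2 receptor, stood at 110.9, 142.4 and 127.7 against 1 count, a ratio of 342 (61.3 to 13500), or at least 72.7 without GFPhigh replicate 3. *ca6*, a secreted carbonic anhydrase, stood at 780, 1062 and 955.5 against 1.18, 0 and 8.223 (-8.09 ± 1.17, and -10.37 without GFPhigh replicate 3). *tfpia*, an inhibitor of blood coagulation, stood at 787.2, 726.4 and 583.7 against 2.361, 0 and 6.167 (-7.83 ± 0.853, and -9.09 without GFPhigh replicate 3). GFPhigh replicate 2 had the lowest GFPhigh level, often 0, in each of the genes of this paragraph that had any count in GFPhigh, apart from *uts2r1*, where it was level with GFPhigh replicate 1 at 0.

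**Figure D2:**
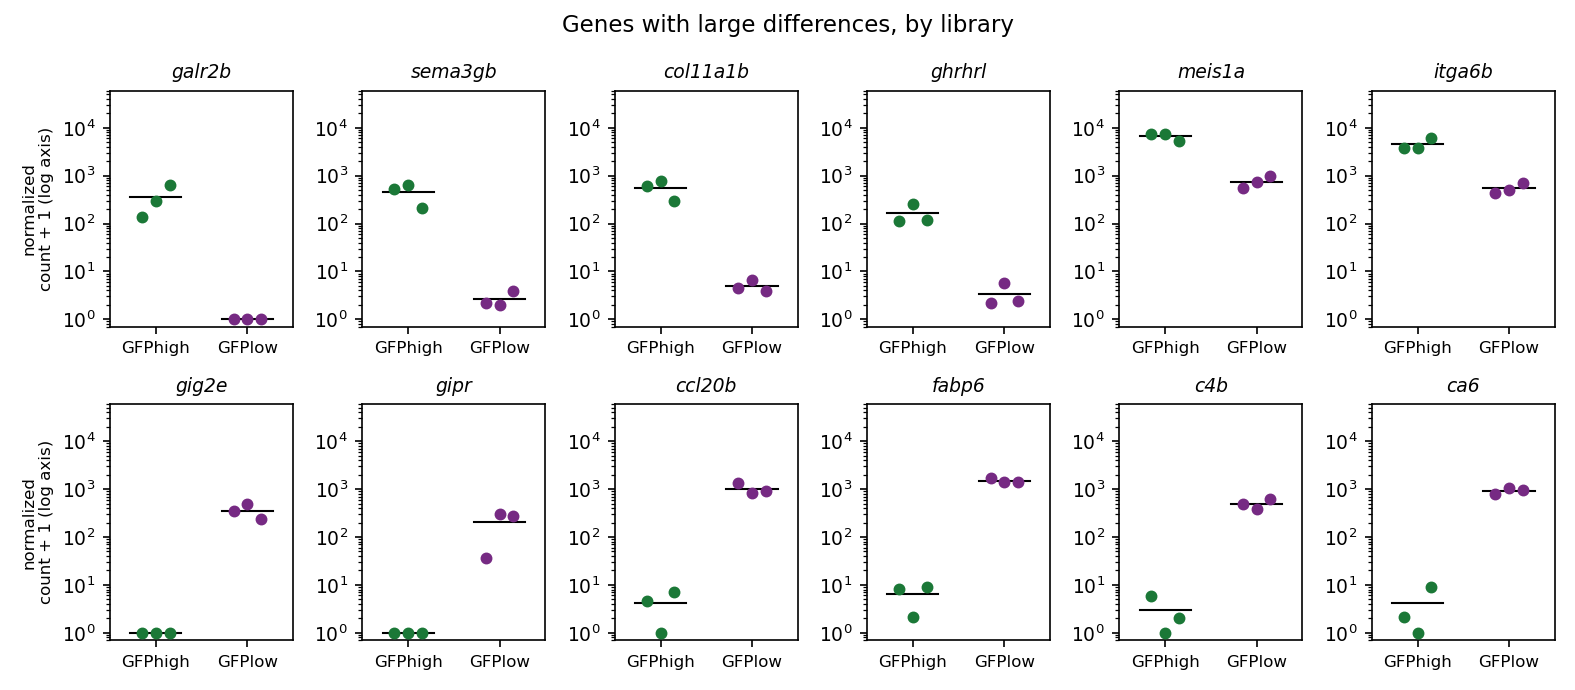
Normalized count plus 1, on a log axis, of 12 genes with large differences in the 3 GFPhigh and 3 GFPlow libraries, with a dot for each library and a black line at the group mean. The 3 dots of a group lie apart from those of the other group in all 12 genes. For the genes chosen by largest fold this separation was part of the choice. *galr2b*, *gig2e* and *gipr* lie at a count of 0 in the lower group.

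A branch of stress-kinase signalling was among the most certain differences. *map2k6* (ENSDARG00000099184), the kinase that activates p38 MAP kinases, stood at 440.3, 582.3 and 784.3 in GFPhigh and at 17130, 22270 and 15150 in GFPlow, a 30.2-fold difference with the smallest p of all named genes (-4.92 ± 0.322, adjusted p = 1.56e-08). *mapk14a*, coding for p38α, stood at 331.7, 269.3 and 441 against 3546, 3530 and 2475 (-3.2 ± 0.286, adjusted p = 7.17e-07). The kinase and its substrate were thus both higher in GFPlow in every library. *rasgef1ba*, an exchange factor for Ras-family proteins, stood at 64.92, 52.94 and 63.73 against 3629, 2469 and 2975, a 49.9-fold difference. *pitpnaa*, a phosphatidylinositol transfer protein, stood at 381.3, 535.1 and 313.5 against 5669, 8867 and 5835 (-4.05 ± 0.343). *kcnk3b*, a background potassium channel, stood at 227.8, 215.2 and 346.4 against 4047, 3037 and 3429 (-3.73 ± 0.326). These 3 genes did not overlap between the groups either. *kctd12.2*, an auxiliary subunit of GABA-B receptors, was among the most abundant GFPlow genes at 39420, 31650 and 27890, against 491.1, 708.9 and 450.2 in GFPhigh, a 60-fold difference.

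To describe functions, 34 gene lists were set beside the shares of all genes, 7.72% higher in GFPhigh and 7.94% higher in GFPlow. In 28 of the 34 the share called was above the 15.7% of all genes. Lists were matched on gene names, and some zebrafish names came from a table of genes that differed in the study. Genes that differ may thus be caught more often by a list, and how far this raised the shares was not tested. The highest shares were in annexins and S100 proteins (6 of 10), growth factors and receptor kinases (28 of 48), peptide precursors (15 of 27), axon guidance genes (39 of 78) and keratins and microvillus proteins (15 of 30). In each of these lists called members lay in both directions. Counts are given below as higher in GFPhigh and higher in GFPlow.

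**Figure D3:**
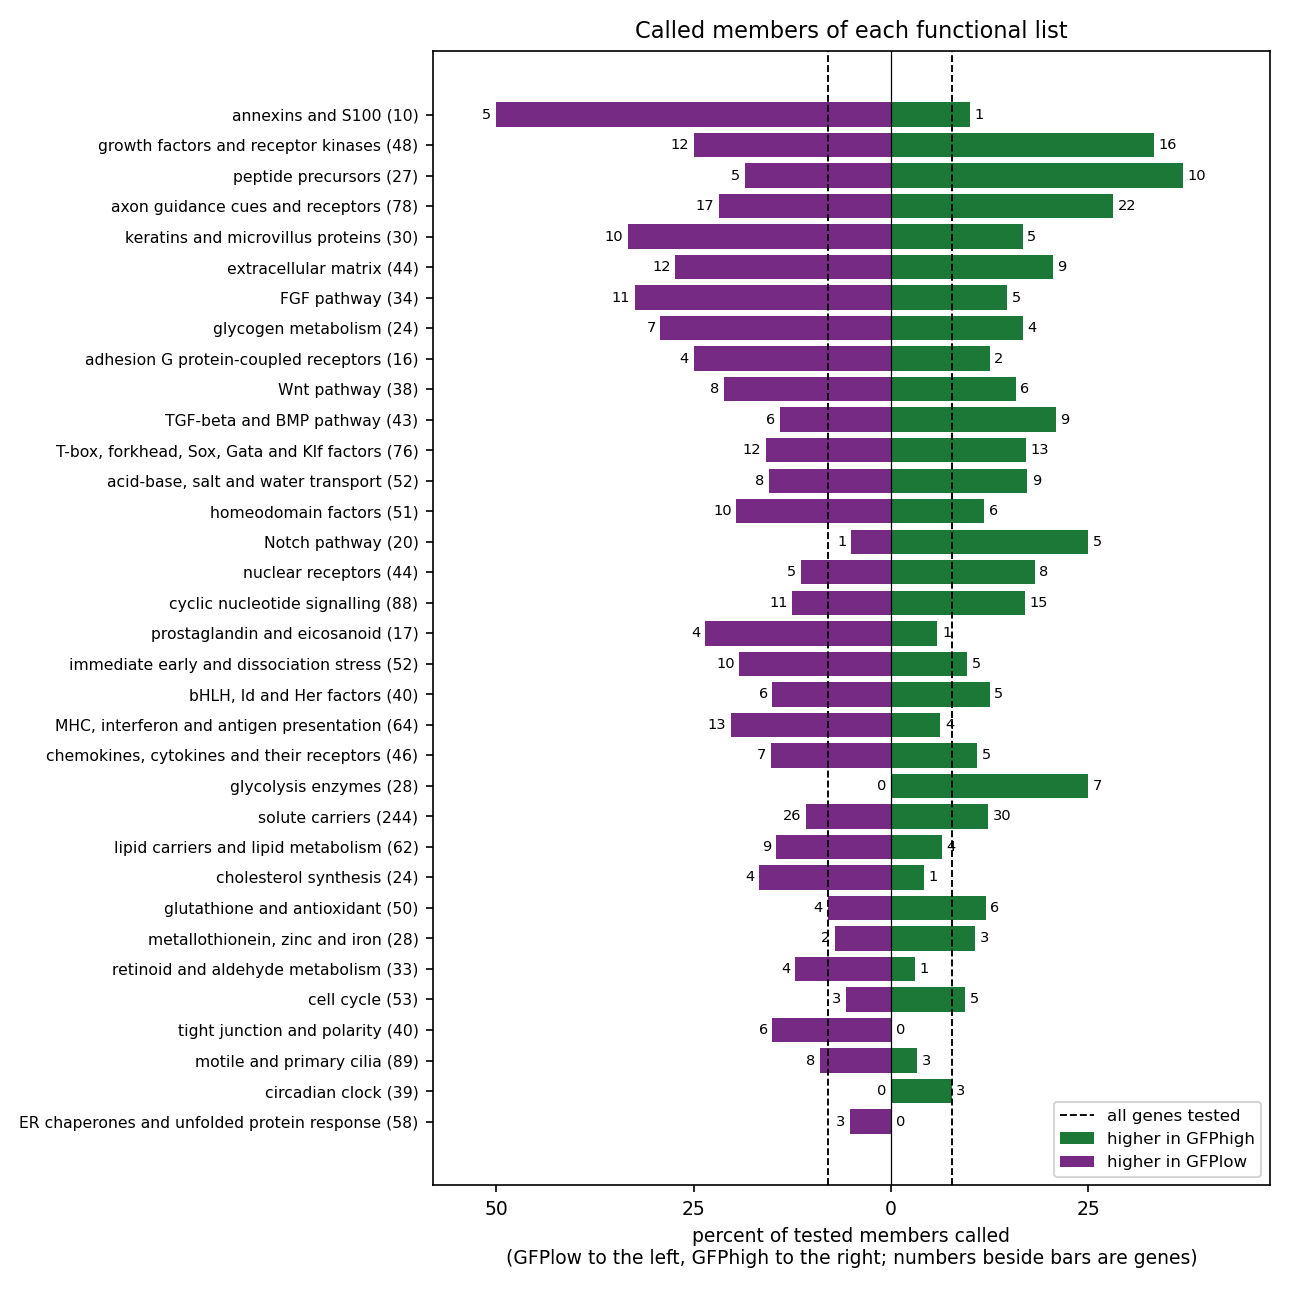
Percent of the tested genes of each of 34 lists called higher in GFPhigh (to the right) and higher in GFPlow (to the left), with dashed lines at the shares of all genes, 7.72% and 7.94%. Most lists extend beyond both lines. Some pass only the right line, among them glycolysis enzymes and Notch genes. Others pass only the left line, among them tight junction genes and MHC and interferon genes. Clock genes and ER chaperones pass neither.

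Hormone precursors other than somatostatin divided the sorts into different peptide repertoires. Of 27 tested precursors 10 were higher in GFPhigh and 5 in GFPlow, with a median log2 fold change of 0.42, and 6 and 7 on library totals alone. *pdyn* (ENSDARG00000087798), the precursor of the opioid dynorphins, stood at 21.25, 13.81 and 19.53 in GFPhigh and at 2222, 2013 and 2258 in GFPlow, a 118-fold difference (-6.88 ± 0.692, adjusted p = 1.7e-06). *nmba*, the precursor of neuromedin B, stood at 29.51, 0 and 97.65 against 4730, 1913 and 3677 (-6.32 ± 0.986, and -7.86 without GFPhigh replicate 3). Both peptides were thus GFPlow genes without overlap. The granins, which pack secretory granules, lay in both directions. *chgb*, coding for chromogranin B, stood at 25.97, 3.452 and 27.75 against 320.8, 450.1 and 228.7 (-4.12 ± 0.609). *scg2b*, coding for secretogranin 2, stood at 13400, 17860 and 10600 against 3236, 3477 and 2939 (2.12 ± 0.306). *scg3*, a granule sorting protein, was abundant in both groups but higher in GFPhigh at 53190, 43080 and 51640 against 20020, 24090 and 20720 (1.19 ± 0.234, adjusted p = 0.00104), a call lost on library totals alone. *NUCB2*, the nucleobindin from which nesfatin is cut, stood at 7541, 7240 and 6438 against 11110, 8434 and 9892 and did not pass the test (-0.47 ± 0.244, adjusted p = 0.198). *ghrl* (ENSDARG00000054239), coding for the ε-cell hormone ghrelin, stood at 423.8, 58.69 and 392.6 against 60950, 33800 and 42860, a 157-fold difference (-7.3 ± 1.43, adjusted p = 0.001). The glucagon genes *gcga* (-3.01 ± 0.929, adjusted p = 0.0277) and *gcgb* (-3.51 ± 1.1, adjusted p = 0.0294) moved the same way, and their calls were lost without GFPhigh replicate 2 (-2.44 and -2.93), GFPhigh replicate 3 (-3.12 and -3.68), GFPlow replicate 1 (-2.96 and -3.41) or GFPlow replicate 3 (-2.74 and -3.29). Without GFPhigh replicate 1 they were -3.76 and -4.21. Both calls were also lost in a fit of only the 6 libraries (-2.98 and -3.49, adjusted p = 0.0847 and 0.0708).

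Of the 3 receptors for prostaglandin E2 given here, 2 were higher in GFPlow and 1 in GFPhigh. *ptger2a*, coding for an EP2 receptor that raises cAMP, stood at 22.43, 32.22 and 43.17 in GFPhigh and at 1882, 1172 and 1448 in GFPlow, a 45.7-fold difference (-5.51 ± 0.616, adjusted p = 4.63e-06). *ptger1b*, an EP1 receptor, stood at 8.263, 0 and 5.139 against 517.6, 216.5 and 405.5 (-6.37 ± 0.905, and -7.09 without GFPhigh replicate 1). *ptger4c* (ENSDARG00000079907), an EP4 receptor, went the other way, at 129.8, 303.8 and 29.81 in GFPhigh against 3 counts in GFPlow, a ratio of 134 (45.9 to 650), with 69.3 without GFPhigh replicate 2 and 292 without GFPlow replicate 3. Each of the 3 receptors separated the groups. *ptgdsb.1*, of the family of prostaglandin D synthase and lipocalins, had 1 count in GFPhigh and was higher in GFPlow by a ratio of 298 (53.5 to 11800), with 190 without GFPhigh replicate 3 and at least 68 without GFPhigh replicate 1. Of the 17 prostaglandin and eicosanoid genes 1 was higher in GFPhigh and 4 in GFPlow. With the library set as a block, described last, the counts were 0 and 1. In that fit *ptger2a* kept its call, and *ptger1b*, *ptger4c* and *ptgdsb.1* lost theirs.

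Downstream of such receptors, cyclic nucleotide signalling had 15 genes higher in GFPhigh and 11 in GFPlow of 88 (median 0.54, and 8 and 12 on library totals alone). *pde3a*, a phosphodiesterase that breaks down cAMP, stood at 723.6, 1522 and 577.7 in GFPhigh against 29.82, 55.07 and 82.78 (4.08 ± 0.561, adjusted p = 3.18e-05). *gucy1b1*, the β subunit of the nitric oxide-sensing guanylate cyclase, stood at 1502, 1273 and 1027 against 332.8, 360.8 and 496.7 (1.68 ± 0.226). *prkg1b*, a kinase that responds to cGMP, was instead a GFPlow gene at 14.17, 0 and 6.167 against 761, 622.9 and 433.6 (-6.47 ± 0.928, and -7.51 without GFPhigh replicate 1). The enzyme that makes cGMP and a kinase that reads it therefore differed in opposite directions. *ppp1r1b* (ENSDARG00000076280), coding for the protein phosphatase inhibitor DARPP-32, stood at 462.8, 388.3 and 256.8 in GFPlow against 3 counts in GFPhigh, a ratio of 331 (113 to 1610), with 680 without GFPhigh replicate 1.

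Of 48 growth factors and receptor kinases 16 were higher in GFPhigh and 12 in GFPlow (median 0.56, and 11 and 13 on library totals alone). *mdkb* (ENSDARG00000020708), coding for a midkine of the same small family as pleiotrophin, was the reverse of *ptn*: it stood at 24.79, 86.31 and 57.56 in GFPhigh and at 4070, 3624 and 3200 in GFPlow, a 64.4-fold difference (-6.01 ± 0.702, adjusted p = 6.72e-06). *ret*, the receptor of the GDNF family of ligands, stood at 9680, 15130 and 8787 against 1116, 1522 and 2037 (2.85 ± 0.318). *ntrk3b*, a neurotrophin 3 receptor, stood at 500.5, 352.1 and 533.5 against 39.36, 56.97 and 144.5 (2.54 ± 0.338, and 3.28 without GFPlow replicate 3). All 3 genes separated the groups. In the FGF pathway receptors lay on both sides. *fgfr2* stood at 289.2, 250.9 and 309.4 in GFPhigh against 21.47, 32.28 and 23.85 (3.44 ± 0.379, adjusted p = 4.03e-06), while *fgfr1a*, picked after its values were seen, was higher in GFPlow at 662.2, 318.8 and 771.9 against 2328, 1759 and 1991 (-1.79 ± 0.367, adjusted p = 0.00145). *kl*, coding for the co-receptor klotho, stood at 63.74, 105.9 and 110 against 5039, 2784 and 3488, a 40.4-fold difference. *fgf24*, a fish ligand, stood at 0, 0 and 5.139 against 263.6, 228.8 and 270.8 (-7.04 ± 1.05, and -11.06 without GFPhigh replicate 3), and *etv4*, an ETS factor known as an FGF target, at 5.902, 0 and 9.251 against 455.6, 423.5 and 498.1 (-6.45 ± 0.743, and -7.24 without GFPhigh replicate 3). Of the 34 FGF genes 5 were higher in GFPhigh and 11 in GFPlow.

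Among the genes given here by library, the BMP and Wnt ligands were GFPlow genes, and 2 of 3 inhibitors were GFPhigh genes. *bmp16*, a fish BMP ligand, stood at 4.722, 0 and 11.31 in GFPhigh and at 800.3, 1176 and 827.8 in GFPlow (-7.38 ± 1.02, and -8.57 without GFPhigh replicate 3). *bmp7b* stood at 7.083, 2.302 and 18.5 against 617.8, 347.5 and 533.2 (-5.71 ± 0.779, and -6.7 without GFPhigh replicate 3). In contrast *smad6b*, an intracellular inhibitor of BMP signals, stood at 338.8, 471.8 and 286.8 against 25.05, 39.88 and 51.91 (3.23 ± 0.448). The decoy receptor gene *bambib*, also an inhibitor, was on the side of the ligands at 97.98, 43.73 and 131.6 against 801.5, 326.6 and 702.9 (-2.74 ± 0.383). Over the 43 TGF-β and BMP genes 9 were higher in GFPhigh and 6 in GFPlow, and 6 and 8 on library totals alone. *wnt7bb* stood at 11.8, 20.71 and 26.72 against 399.6, 491.8 and 355 (-4.38 ± 0.506), and *wnt9a* at 8.263, 0 and 12.33 against 497.4, 588.7 and 468.6 (-6.19 ± 0.751, and -6.94 without GFPhigh replicate 3). *wls*, the carrier needed to secrete Wnt proteins, stood at 247.9, 135.8 and 254.9 against 931.5, 998.9 and 944.3 (-2.17 ± 0.319). The secreted Wnt inhibitor *wif1* was higher in GFPhigh at 3456, 2619 and 5000 against 551, 582 and 1033 (2.36 ± 0.317). All 8 genes were called and separated the groups, as 97.1% of all called genes did. Not all called genes followed this pattern. The secreted Wnt inhibitor *sfrp1a* was a GFPlow gene, with a mean of 99 against 2 counts in GFPhigh. The BMP ligand *bmp10l* was a GFPhigh gene, with a mean of 33.5 against 1 count in GFPlow. Ligands and inhibitors were not counted as classes. Of the 38 Wnt genes 6 were higher in GFPhigh and 8 in GFPlow, and the count in GFPhigh was 3 without GFPhigh replicate 2 and 2 without GFPlow replicate 2. In the Notch pathway 5 of 20 genes were higher in GFPhigh, among them the receptor *notch1a* at 126.3, 155.4 and 91.48 against 20.28, 31.33 and 25.26 (2.27 ± 0.435), and 1 in GFPlow, *lfng*, a glycosyltransferase that modifies Notch (-5.15, and -5.81 without GFPhigh replicate 1). With single libraries left out the number of Notch genes higher in GFPhigh fell as low as 1. On library totals alone the Notch counts were 2 and 2, and the library set block left 0 and 0.

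**Figure D4:**
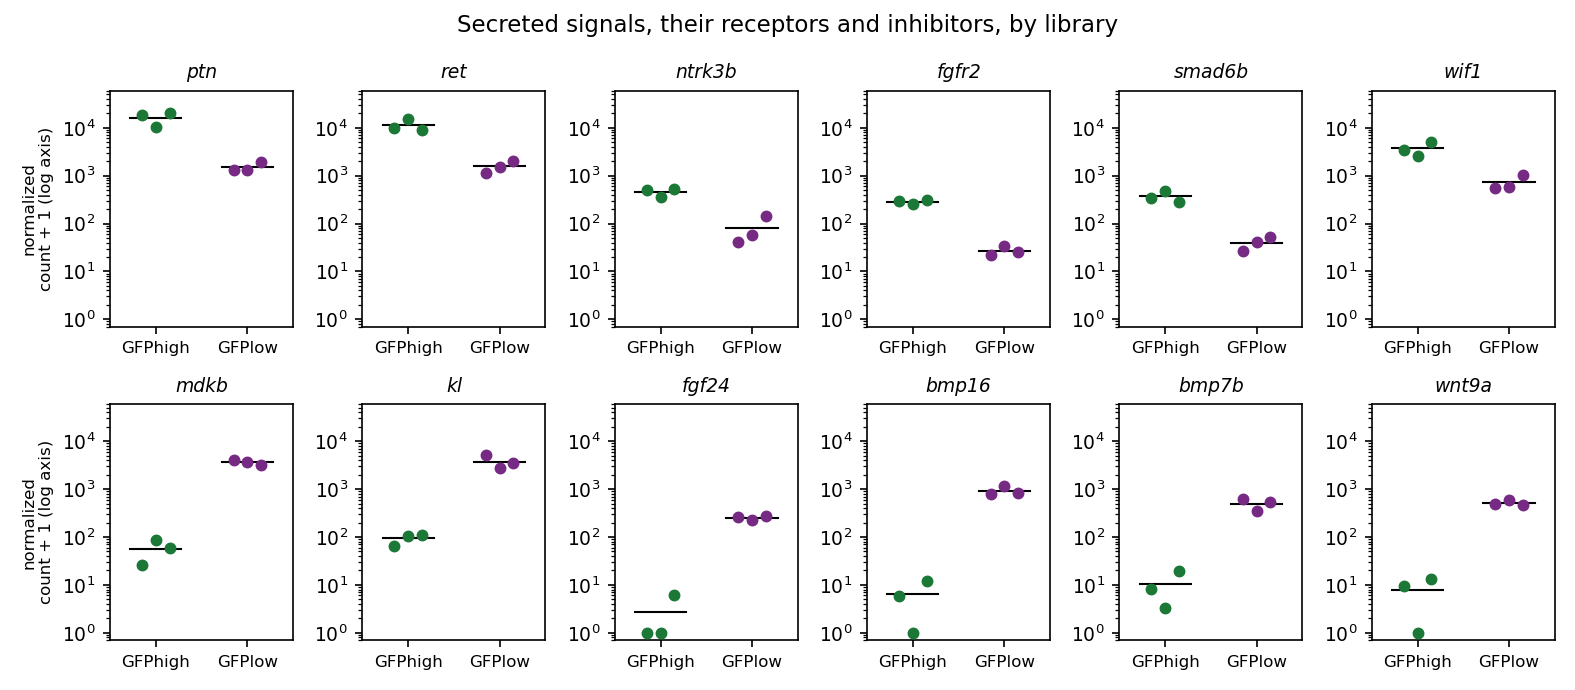
Normalized count plus 1, on a log axis, of 12 genes of intercellular signalling in the 3 GFPhigh and 3 GFPlow libraries, with a dot for each library and a black line at the group mean. *ptn*, *ret*, *ntrk3b*, *fgfr2*, *smad6b* and *wif1* are higher in GFPhigh, and *mdkb*, *kl*, *fgf24*, *bmp16*, *bmp7b* and *wnt9a* are higher in GFPlow, with no overlap of dots in any of the 12.

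Transcription factors were divided between the sorts. *sim1a* (ENSDARG00000023316), a bHLH-PAS factor of neuroendocrine hypothalamic cells, stood at 1324, 1326 and 1275 in GFPhigh and at 63.22, 77.86 and 99.62 in GFPlow, a 16.3-fold difference (4.03 ± 0.511, adjusted p = 1.4e-05). *mlxipl* (ENSDARG00000104054), coding for the glucose-responsive factor ChREBP, stood at 3618, 3712 and 2291 against 260, 277.3 and 461.6 (3.27 ± 0.373, adjusted p = 5.42e-06). *hnf4a*, a factor of liver, gut and islet, stood at 243.2, 483.3 and 269.3 against 42.94, 34.18 and 49.11 (2.98 ± 0.361). All 3 separated the groups, as did *foxo1a*, a forkhead factor under insulin control, at 3859, 4115 and 4133 against 1459, 1156 and 1494 (1.56 ± 0.22). GFPlow had its own homeodomain factors. *cdx1b*, an intestinal factor, stood at 21.25, 19.56 and 32.89 against 2488, 1838 and 1691, an 80.9-fold difference (-6.34 ± 0.784, adjusted p = 1.12e-05). *hmx4* stood at 5.902, 0 and 2.056 against 646.5, 442.5 and 430.7 (-7.53 ± 0.936, and -8.73 without GFPhigh replicate 1), and *hopx*, which does not bind DNA itself, at 302.2, 324.5 and 214.8 against 3799, 3881 and 2189 (-3.55 ± 0.352). Of 51 homeodomain genes 6 were higher in GFPhigh and 10 in GFPlow. *insm1b*, a zinc-finger factor of endocrine differentiation, stood at 16.53, 23.02 and 20.56 against 402, 353.2 and 350.8 (-4.19 ± 0.555). *id2a*, an inhibitor of bHLH factors, stood at 8.263, 8.055 and 26.72 against 214.7, 166.2 and 225.9 (-3.79 ± 0.608, and -4.61 without GFPhigh replicate 3). *sp6*, an epithelial zinc-finger factor, had no count in GFPhigh and was at least 78.6-fold higher in GFPlow at 42.94, 106.3 and 113.6 (at least 50.1 without GFPhigh replicate 3).

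Among nuclear receptors 8 of 44 were higher in GFPhigh and 5 in GFPlow (3 and 7 on library totals alone). *ar*, the androgen receptor, stood at 3.541, 0 and 1.028 in GFPhigh against 94.23, 140.5 and 144.5 in GFPlow (-6.29 ± 1.08, adjusted p = 0.000291, and -7.59 without GFPhigh replicate 1). *thraa*, a thyroid hormone receptor, stood at 88.53, 87.46 and 90.45 against 186.1, 290.5 and 188 (-1.32 ± 0.268). Receptors higher in GFPhigh included *pparaa*, a receptor for fatty acids, at 88.53, 234.8 and 114.1 against 20.28, 20.89 and 7.015 (3.15 ± 0.61), and *nr6a1a*, an orphan receptor, at 154.6, 79.4 and 153.2 against 5.964, 8.546 and 28.06 (3.22 ± 0.607, and 4.14 without GFPlow replicate 3). Without GFPhigh replicate 2 or GFPlow replicate 2 the number higher in GFPhigh was 5.

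Several claudins and annexins were GFPlow genes. Of 40 tight junction and polarity genes 0 were higher in GFPhigh and 6 in GFPlow, with 1 higher in GFPhigh without GFPhigh replicate 1 or 3. At an unadjusted p below 0.05 in edgeR the counts were 5 and 10, DESeq2 called 1 and 7 and limma's voom 1 and 8. The share called, 6 of 40, was no higher than that of all genes, and the library set block left 0 and 2. *cldni* (ENSDARG00000054616), a claudin, stood at 61.38, 52.94 and 137.7 in GFPhigh and at 10880, 9861 and 9427 in GFPlow, a 119-fold difference (-6.9 ± 1.06, adjusted p = 9.59e-05). *cldn15a* stood at 4.722, 0 and 3.084 against 521.2, 587.7 and 324.1 (-7.46 ± 0.977, and -8.11 without GFPhigh replicate 1). *cldn11a* stood at 50.76, 23.02 and 20.56 against 590.4, 326.6 and 453.2 (-3.86 ± 0.592). *cldn3d* had no count in GFPhigh and was at least 83.2-fold higher in GFPlow (53.1 without GFPhigh replicate 3). The 4 claudins did not overlap between groups. Annexins bind membranes when calcium rises. Of 10 annexin and S100 genes 1 was higher in GFPhigh and 5 in GFPlow, with a median of -2.19 against -0.05 for all genes. *anxa11a* (ENSDARG00000077383) stood at 809.8, 817.1 and 681.5 against 5329, 5861 and 4871 (-2.8 ± 0.202, adjusted p = 3.28e-08), and *anxa4*, which is also a ductal marker, at 36.59, 80.55 and 44.2 against 4591, 4891 and 3830 (-6.36 ± 1.07). *s100a10b*, a partner of annexin 2, stood at 2.361, 18.41 and 12.33 against 586.8, 604.8 and 475.6 (-5.63 ± 0.984). For *anxa11a* and *anxa4* each GFPlow level was more than 5-fold that of any GFPhigh library. The exception in the list was *anxa5a*, at 309.3, 223.3 and 714.4 in GFPhigh against 226.6, 130.1 and 178.2, which overlapped (1.22 ± 0.421, adjusted p = 0.049). Keratin and microvillus genes lay in both directions, 5 and 10 of 30. *vil1*, coding for villin of the microvillus core, was a GFPhigh gene at 394.3, 880.4 and 416.3 against 28.63, 40.83 and 82.78 (3.49 ± 0.47). *ush1c*, coding for harmonin, was a GFPlow gene at 1.18, 0 and 10.28 against 378.1, 287.7 and 227.3 (-6.18 ± 0.853, and -8.73 without GFPhigh replicate 3). *krt8*, an epithelial keratin and a ductal marker, overlapped between the groups at 1256, 1035 and 1763 against 1100, 751.1 and 1054 and was not called (0.48 ± 0.301, adjusted p = 0.296).

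Matrix and guidance genes differed in both directions. Of 44 matrix genes 9 were higher in GFPhigh and 12 in GFPlow, with 5 higher in GFPhigh without GFPlow replicate 2. *tnc*, coding for the matrix protein tenascin C, stood at 142.8, 210.6 and 139.8 normalized counts in GFPhigh and at 1229, 1930 and 1769 in GFPlow (-3.32 ± 0.48). *mmp14a*, a membrane-bound matrix protease, had 1 count in GFPhigh and stood at 151.5, 144.3 and 168.4 in GFPlow, a ratio of 416 (74.7 to 16400), or at least 88.5 without GFPhigh replicate 3. The secreted protease *mmp9* was the reverse, at 530, 730.7 and 323.8 against 27.43, 18.99 and 28.06, a 21.3-fold difference (4.42 ± 0.57, adjusted p = 1.61e-05). Among axon guidance cues and their receptors 22 of 78 were higher in GFPhigh and 17 in GFPlow, and 10 and 20 on library totals alone. The number higher in GFPhigh was 13 without GFPlow replicate 2 and 14 without GFPlow replicate 1. Besides *sema3gb* in GFPhigh, GFPlow had the semaphorins *sema3fa*, at 11.8, 0 and 12.33 against 834.9, 714 and 642.6 (-6.47 ± 0.734), and *sema4c*, at 29.51, 1.151 and 9.251 against 638.1, 500.4 and 457.4 (-5.32 ± 0.751, and -6.61 without GFPhigh replicate 1). *epha4a*, an ephrin receptor, stood at 412, 510.9 and 448.1 against 1813, 1779 and 1691 (-1.95 ± 0.243), and the ligand *efna5a*, with 1 count in GFPhigh, was higher in GFPlow by a ratio of 308 (55.2 to 12200), or at least 65.5 without GFPhigh replicate 3. *nrcama*, a neuronal adhesion molecule, stood at 275, 188.7 and 156.2 against 2671, 2225 and 2113 (-3.5 ± 0.33). None of these genes overlapped. Latrophilins, adhesion receptors of synapses, were GFPhigh genes: *adgrl1a* at 196, 165.7 and 290.9 against 32.2, 14.24 and 23.85 (3.22 ± 0.461) and *ADGRL3* (ENSDARG00000090624) at 790.9, 1128 and 570.5 against 17.89, 61.72 and 103.8 (3.77 ± 0.648, and 4.38 without GFPlow replicate 3). *adgrv1*, a very large adhesion receptor of hair cells, was instead a GFPlow gene at 10.62, 2.302 and 11.31 against 485.4, 296.2 and 456 (-5.64 ± 0.761).

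A few lipid carriers of the gut were GFPlow genes, and the glycolysis enzymes that were called were GFPhigh genes. *fabp6* (ENSDARG00000044566), which binds bile acids in ileal cells, stood at 7.083, 1.151 and 8.223 in GFPhigh and at 1677, 1418 and 1421 in GFPlow, a 266-fold difference (-8.05 ± 0.773, adjusted p = 1.06e-06). *mttp*, which loads lipid onto apolipoprotein B, had no count in GFPhigh and stood at 81.11, 152.9 and 64.54 in GFPlow, at least an 89.2-fold difference (56.9 without GFPhigh replicate 3). *lipia*, a phospholipase, had 2 counts in GFPhigh and stood at 200.4, 202.2 and 192.2 in GFPlow, a ratio of 267 (73.8 to 2200), with 170 without GFPhigh replicate 3 and at least 122 without GFPhigh replicate 1. These 3 did not overlap, but the list they come from held no more than 4 of 62 genes higher in GFPhigh and 9 in GFPlow, with a median of -0.07. *GPT* (ENSDARG00000019541), alanine aminotransferase, stood at 10990, 11330 and 8301 in GFPhigh against 520, 566.9 and 1577, an 11.5-fold difference (3.52 ± 0.342, adjusted p = 1.06e-06, and 4.26 without GFPlow replicate 3). *pck1* (ENSDARG00000013522), the gluconeogenic enzyme PEPCK, stood at 90.89, 323.4 and 268.3 against 2.385, 0 and 9.822 (5.92 ± 1.57, adjusted p = 0.0107), a call lost without GFPlow replicate 1 (5.71) or GFPlow replicate 2 (5.24), with 7.6 without GFPlow replicate 3. Of 28 glycolysis enzymes 7 were higher in GFPhigh and 0 in GFPlow (median 0.43). On library totals alone the counts were 1 and 2, and without GFPhigh replicate 3 there was 1 higher in GFPlow. The library set block left 2 and 0, and requiring a fold of 2 within the test left 1 and 0. At an unadjusted p below 0.05 in edgeR the counts were 11 and 2, with 8 and 0 called by DESeq2 and 8 and 2 by limma's voom. *pfkfb4a*, whose enzyme sets the level of a fructose bisphosphate that speeds glycolysis, stood at 2145, 1592 and 3047 against at most 916.2 in GFPlow (1.92 ± 0.403, adjusted p = 0.00177). Its relative *PFKFB2* stood at 345.9, 339.5 and 325.8 against 112.1, 123.4 and 190.8 (1.25 ± 0.257), and *pklr*, pyruvate kinase, at 1012, 1183 and 1195 against 277.9, 382.7 and 451.8 (1.61 ± 0.359). The calls of *PFKFB2* and *pklr* were lost on library totals alone. For glycogen 4 genes were higher in GFPhigh and 7 in GFPlow of 24. *ugp2b*, which makes the UDP-glucose used for glycogen, stood at 425, 382.1 and 610.6 against 3662, 4216 and 2916 (-2.93 ± 0.276). *phkg2*, the catalytic subunit of phosphorylase kinase, stood at 128.7, 365.9 and 179.9 against 1205, 1473 and 956.9 (-2.43 ± 0.345). *ppp1r3ca*, which targets a phosphatase to glycogen, stood at 330.5, 278.5 and 305.3 against 63.22, 39.88 and 98.22 (2.19 ± 0.338). Genes that build and genes that break glycogen were therefore found among the GFPlow genes.

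Transport and redox genes also divided. Of 244 solute carriers 30 were higher in GFPhigh and 26 in GFPlow, with a median of 0, and 17 and 40 on library totals alone. *slc38a3b*, a glutamine transporter, stood at 500.5, 779.1 and 652.7 in GFPhigh against 50.09, 47.48 and 63.14 (3.59 ± 0.444). *slc30a2*, a zinc transporter, stood at 1461, 1237 and 2519 against 137.2, 168.1 and 362 (2.97 ± 0.378), and *SLC24A2* (ENSDARG00000063158), a sodium, potassium and calcium exchanger, at 350.6, 201.4 and 258 against 31.01, 35.13 and 30.87 (3.05 ± 0.382). On the GFPlow side, *slc26a5*, an anion transporter known as prestin, stood at 374.2, 347.5 and 370 against 2582, 2181 and 2346 (-2.7 ± 0.271). *slc3a2a*, the heavy chain of amino acid exchangers, stood at 885.3, 714.6 and 1431 against 5747, 10560 and 5612 (-2.85 ± 0.302). All 5 carriers separated the groups. *atp1a1b*, a sodium pump subunit, stood at 30.69, 6.905 and 28.78 against 2569, 2512 and 2064, a 107-fold difference (-6.74 ± 0.767, adjusted p = 5.24e-06). Among inward rectifier potassium channels *kcnj2a* was higher in GFPhigh at 1247, 1529 and 1556 against 204, 215.5 and 340.9 (2.51 ± 0.3), and *kcnj19b* in GFPlow at 57.84, 79.4 and 80.17 against 1323, 1277 and 1101 (-4.09 ± 0.552). Its namesake *kcnj19a*, picked after its values were seen, was a GFPhigh gene at 485.2, 585.7 and 590 against 159.8, 98.75 and 217.5 (1.81 ± 0.385). Of antioxidant genes *gpx3*, a secreted glutathione peroxidase, stood at 9596, 11060 and 13810 against 3591, 2888 and 2750 (1.9 ± 0.223), and *gstp1.2*, a glutathione transferase, at 421.4, 912.6 and 238.5 against 77.53, 137.7 and 157.1 (2.08 ± 0.398, and 1.41 without GFPhigh replicate 2). The p53 target *sesn1* was a GFPlow gene at 188.9, 146.1 and 133.6 against 902.9, 981.8 and 893.8 (-2.57 ± 0.468). The cyclin *ccnd1*, which acts in G1, stood at 16.53, 0 and 7.195 against 329.2, 315.2 and 246.9 (-5.22 ± 0.866, and -6.27 without GFPhigh replicate 1), whereas the 53 cell cycle genes as a list held 5 higher in GFPhigh and 3 in GFPlow, and 4 and 8 on library totals alone.

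Defence and stress genes lay in both directions, and their counts depended on the fit. Of 64 genes of MHC, interferon and antigen presentation 4 were higher in GFPhigh and 13 in GFPlow, with 8 in GFPlow without GFPhigh replicate 2 and 7 without GFPlow replicate 1. With the library set as a block the counts were 3 and 1. *stat1b*, a mediator of interferon signals, was uneven within GFPlow at 328, 103.5 and 72.96, against 1.18, 0 and 3.084 in GFPhigh (-6.73 ± 1.33, and -7.9 without GFPhigh replicate 3 or -5.79 without GFPlow replicate 1). *b2m*, the light chain of MHC class I, went the other way at 12200, 8447 and 11950 against 5580, 4814 and 5285 (1.06 ± 0.215, adjusted p = 0.0014). It fell under a fold change of 2 without GFPhigh replicate 1 (0.96) or GFPhigh replicate 3 (0.98), and its call was lost on library totals alone. The class I gene *mhc1zba* stood at 5596, 6713 and 6423 against 9914, 9731 and 8664 and was not called (-0.6 ± 0.274, adjusted p = 0.144). The chemokine scavenger receptors *ackr3a*, with no count in GFPhigh and at least 70-fold higher in GFPlow (44.7 without GFPhigh replicate 3), and *ackr3b*, at 33.05, 8.055 and 27.75 against 137.2, 306.7 and 246.9 (-3.32 ± 0.607), were GFPlow genes. Their relative *ackr4a* was a GFPhigh gene at 131, 57.54 and 113.1 against 20.28, 15.19 and 29.46 (2.23 ± 0.41). The summed leukocyte markers, given above, overlapped between the groups. Of the 4 tested, 1 was called, *laptm5*, at 8.26, 11.5 and 23.6 in GFPhigh against 0 in each GFPlow library. *CORO1A*, which did not enter the test, was the reverse at 1.18, 0 and 0 against 9.54, 12.3 and 23.9. Of 52 immediate early and dissociation stress genes 5 were higher in GFPhigh and 10 in GFPlow, with a median of 0.17. The count in GFPlow was 6 without GFPhigh replicate 2 or GFPlow replicate 1, and both counts were 1 with the library set as a block. *jun* stood at 746, 146.1 and 646.5 against 6005, 3205 and 3870 (-3.09 ± 0.6), and *atf3*, a stress-induced factor, at 67.28, 35.67 and 34.95 against 1054, 834.6 and 362 (-4.03 ± 0.821). *cebpb*, a factor of inflammatory responses, stood at 10.62, 87.46 and 12.33 against 455.6, 637.1 and 495.3 (-3.85 ± 0.731, and -5.51 without GFPhigh replicate 2). All 3 lost the call with the library set as a block, and the part of dissociation in the other differences was not tested. *FOS* did not follow: it stood at 23610, 18260 and 21680 against 23430, 26840 and 21110 and overlapped (-0.17 ± 0.315, adjusted p = 0.759). *dusp2*, a phosphatase that turns off MAP kinases, was higher in GFPhigh at 8316, 7354 and 8073 against 3001, 2301 and 3243 (1.47 ± 0.324), a call lost on library totals alone.

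Several functions differed little beyond the background of all genes. Of 89 cilia genes 3 were higher in GFPhigh and 8 in GFPlow, with a median of 0, and of 58 ER chaperone and unfolded protein genes 0 and 3, with 0 and 12 on library totals alone, 2 higher in GFPhigh without GFPhigh replicate 3, 4 and 6 at an unadjusted p below 0.05 in edgeR, 0 and 3 in DESeq2 and 2 and 5 in limma's voom. *pdia2*, a protein disulfide isomerase of the pancreas, stood at 0, 0 and 5.139 in GFPhigh against 163.4, 262.1 and 181 (-6.71 ± 0.865, and -10.73 without GFPhigh replicate 3). The acinar markers, given above, also differed between the groups, and their part in this difference was not tested. Of 39 clock genes 3 were higher in GFPhigh and 0 in GFPlow, with 4 and 3 at an unadjusted p below 0.05 in edgeR, 3 and 0 called by DESeq2 and 4 and 0 by limma's voom. On library totals alone the split turned to 0 and 4, the library set block left 0 and 0, without GFPhigh replicate 2 it was 2 and 1, and without GFPlow replicate 2 it was 1 and 0. *hlfa*, a clock output factor, stood at 652.8, 753.8 and 568.4 against 201.6, 148.1 and 235.7 (1.76 ± 0.456, adjusted p = 0.00939), and its call was lost without GFPlow replicate 2 (1.59). *rora*, a receptor of the clock loop, stood at 373, 710 and 383.4 against 125.2, 192.7 and 157.1 (1.62 ± 0.411, adjusted p = 0.00783), and its call was lost without GFPhigh replicate 2 (1.25). Both calls were also lost on library totals alone.

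The libraries fell into sets of neighbouring numbers in the deposited data, and no set held both GFPhigh and GFPlow. What a set stands for was not stated, and set and gate cannot be told apart within the 6 libraries. β-cells were the only group with libraries in the sets of both sorts. The 4 β-cell libraries from the sets of GFPhigh differed from the 2 from the set of GFPlow replicates 2 and 3 in 1 of 14620 genes (0.00684%), which was not among the 2290. How large a set difference 4 against 2 libraries could detect was not tested, so this low count does not show that the sets are alike. No β-cell library came from the set of GFPlow replicate 1. With the library set as a block, which uses β- and bihormonal cells as the bridge and leaves GFPlow replicate 1 without weight, 815 genes were called, 390 higher in GFPhigh and 425 in GFPlow. Of the 2290 genes 765 (33.4%) kept their call and 2281 (99.6%) their sign, with a median absolute log2 fold change of 2.07 in place of 2.26. Among the lists counted here, those whose split became even or turned with the block were peptide precursors (4 and 4), nuclear receptors (2 and 2), TGF-β and BMP genes (3 and 3), cyclic nucleotide signalling (7 and 8), axon guidance (5 and 9) and solute carriers (13 and 14), beside those given above. Of 144 called genes followed individually, 96 kept the call, among them *ptn*, *meis1a*, *sim1a*, *mlxipl*, *ret*, *sema3gb*, *mdkb*, *kl*, *fabp6*, *pdyn*, *cldni*, *map2k6* and *anxa11a*. The 48 that lost it included *sst1.1* (2.7, adjusted p = 0.297), *ghrl* (-5.85, adjusted p = 0.0637), *galr2b*, *gipr*, *gig2e*, *ghrhrl*, *meis2a*, *gcnt4a*, *brinp3a.1*, *ptger4c*, *ptger1b*, *ptgdsb.1*, *uts2r1*, *ccl20b*, *c4b*, *bfb* and *ca6*. The call was also lost for *pck1*, *pfkfb4a*, *PFKFB2*, *scg3*, *gcga*, *gcgb*, *sema3fa*, *cldn11a*, *cldn3d*, *hmx4*, *sp6*, *notch1a*, *lfng*, *nr6a1a*, *thraa*, *mttp*, *gstp1.2* and *ccnd1*, and for *stat1b*, *ackr3b*, *jun*, *atf3*, *cebpb*, *dusp2*, *pdia2*, *hlfa* and *rora*.

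**Figure D5:**
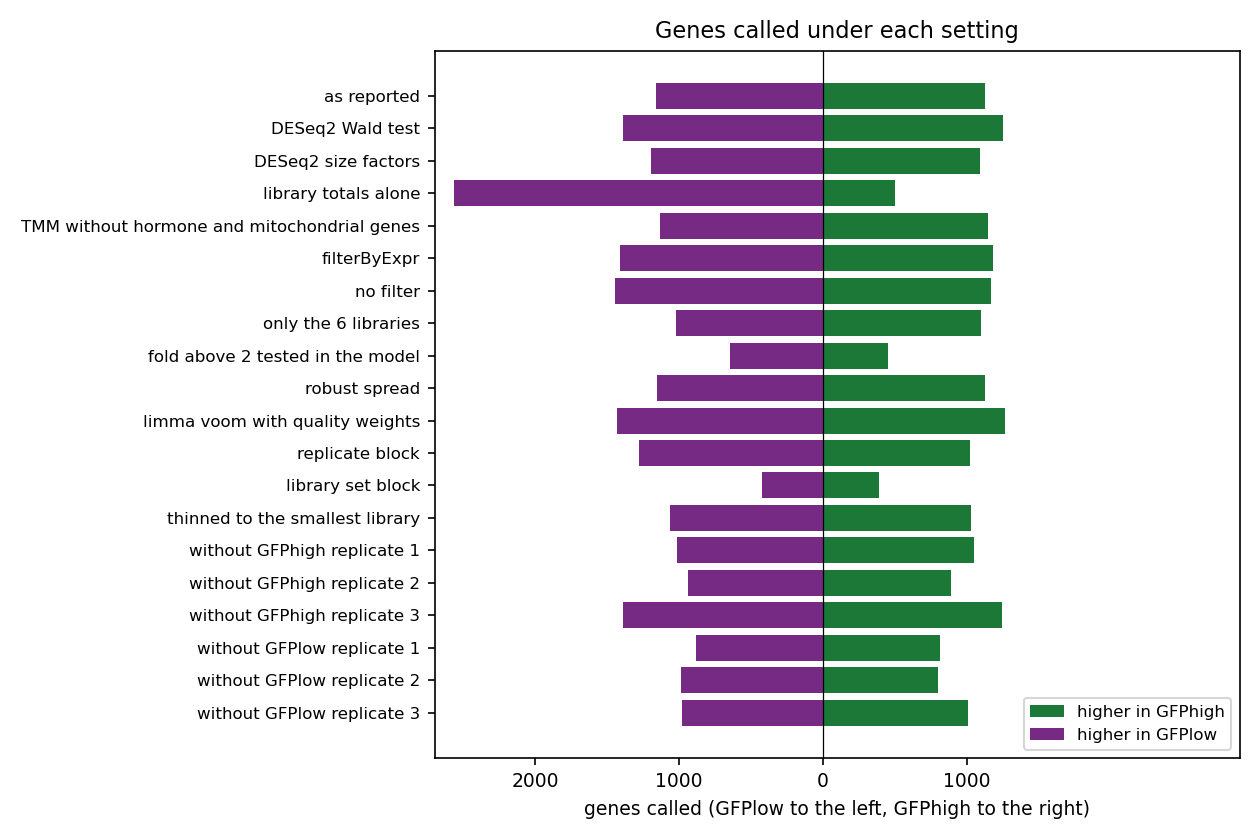
Number of genes called higher in GFPhigh and higher in GFPlow under each way of processing the libraries, with the reported fit first. The reported fit used all 19 libraries, and some settings left libraries out. The count fell to 815 with the library set as a block and to 1100 when the fold of 2 was part of the test, and the split moved to 500 and 2564 on library totals alone.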

How the data were processed

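Cells were sorted by FACS and libraries were made with SMART-Seq2 and Nextera. Single-end reads were mapped by the authors to GRCz11 (STAR) and assigned to genes (featureCounts, versions not given in the sources used here). The deposited values were unnormalized counts of 31901 gene IDs in each library. Groups came from the labels. Of the IDs, 29178 matched the gene name table, whose capital names are human symbols of zebrafish genes. Zebrafish names for some came from the gene symbols of a supplementary table of genes that differed in the study. List patterns were widened afterwards to catch capital names. The members and lists were chosen with earlier results of these data known.

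TMM (trimmed mean of M-values) scaled the counts, which were fitted in edgeR 4.0.16 (R 4.3.3) by the quasi-likelihood test, with 1 mean per group over all 19 libraries. Genes averaging 10 or more normalized counts over the 19 libraries entered the test, and p-values were adjusted by Benjamini-Hochberg over all 14620. Calls required an adjusted p below 0.05 and a fold change above 2. Errors in the text are standard errors of the log2 fold change. The biological coefficient of variation was 37.2%. Folds between means are ratios of mean normalized counts. Where the lower group had no count, the fold is against a floor of 3 counts over the group. Leaving out any library of that group spreads the floor over fewer libraries and lowers the limit. For such genes a lower limit without 1 of these libraries does not single that library out. With 1 to 3 counts the pooled ratio is given with its exact 95% interval, which covers counting error only, since the reads carry no molecular identifiers.

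Genes named in each direction were the 15 largest folds, from 100 counts up in the higher group and only where groups did not overlap. The 10 smallest p-values from 1000 counts up and the 15 most abundant genes of each group followed. From each list came the 4 called genes with the smallest p-values and the 2 most abundant uncalled genes. Label and marker genes were added. Of all these the text prints a selection made after values were seen. In simulated counts for this comparison, over 14620 genes with 200 changed, the fit recovered 11.9%, 73.1% and 100% of 2-, 4- and 8-fold changes with 5 false calls. The simulation changed far fewer genes than the 2290 called in the data and left out the least expressed genes as changed ones. It also held no library sets and no outlying library, so these rates need not hold for the data. Alternatives were other scalings, filters and tests (DESeq2 1.42.0, limma 3.58.1), thinned counts, blocks for the replicate number and the library set, and each library left out. A gene that the rule names is not reported here.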

Additional observations from a re-analysis of the deposited data

How the results depend on the processing

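The reported fit called 2290 genes. DESeq2's Wald test, DESeq2's size factors, other filters on low counts, TMM without hormone and mitochondrial genes, robust fitting, limma's voom, only the 6 libraries and thinned counts gave 2093 to 2694 calls. The split moved on library totals alone (500 higher in GFPhigh and 2564 in GFPlow). Requiring a fold of 2 within the test gave 1100 calls (453 and 647), and the library set as a block gave 815 (390 and 425). Leaving out 1 library at a time gave 1698 to 2636 calls, 802 to 1247 higher in GFPhigh and 880 to 1389 in GFPlow. *krt8*, which was not called, changed sign on library totals alone (-0.04). Replicate numbers were not taken as pairs. Same-numbered GFPhigh and GFPlow libraries deviated together at 0.065, 0.126 and 0.028, and differently numbered ones at -0.117 to 0.054. A replicate block gave 2302 calls, 1025 and 1277. Of the called genes followed individually, 8 lost the call without some library. The cause of these shifts was not tested. In the simulated counts 11.9% of 2-fold changes were called, with a median estimated log2 fold change of 0.95. Calls required a fold change above 2, so true 2-fold changes can be missed by that rule alone. How far depth or the 3 pools per group limited the calls of such changes was not tested.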

Other observations

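Some genes whose names differ only in a final a or b lay in opposite directions. Of 365 such pairs with both genes tested, 181 had neither gene called, 121 had 1 called and 63 had both. In 39 of the 63 both members were higher in the same sort (28 in GFPhigh and 11 in GFPlow), and in 24 they lay in opposite directions. Calls over all genes split nearly evenly, with 1129 higher in GFPhigh and 1161 in GFPlow. Called genes paired without regard to name would thus often be opposed. No share for such pairs was set beside these counts, and they are not read as a result about shared names. Midkines were such a pair: *mdka* stood at 317.5, 158.8 and 363.9 normalized counts in GFPhigh and at 20.28, 24.69 and 36.48 in GFPlow (log2 fold change 3.37, adjusted p = 0.000463 in edgeR's quasi-likelihood test), against -6.01 for *mdkb*. *pcdh10a*, a protocadherin of neural circuits, stood at 8504, 16500 and 8094 against 634.5, 808 and 1322 (3.58), and *pcdh10b* at 16.53, 19.56 and 17.47 against 99, 126.3 and 190.8 (-2.95). *fhl3a* (-5.81) and *fhl3b* (3.7) of the LIM-only proteins, *ndrg1a* (2.87) and *ndrg1b* (-5.01), and *fam20ca* (2.72) and *fam20cb* (-3.69), secretory kinases, were opposed as well. These pairs were chosen after their values were seen and were not tested as a set. Many zebrafish names came from a table of genes that differed in the study, so that pairs with called members are over-represented. A shared name does not by itself say how closely a pair is related.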
